A study of Mus musculus with 4 samples.

Results

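The 45 genes described here encode proteins of DNA replication, from the loading of the helicase at origins to the supply of nucleotides and the copying of chromatin and DNA methylation. They were given as a list of gene names, drawn up with earlier results of these data known, and all 45 were found among the 41342 named genes of the count table. All 45 also passed the minimum of 50 counts on average per library, as did 11286 genes in all, and the lowest count of any of them in any library was 68. The RNA came from splenocytes of mice of strain 129 after depletion of CD43-positive cells, which leaves mainly small B cells. Both groups of mice were homozygous for a germline mutation of the 3' regulatory region (3'RR) downstream of the IgH locus, derived in ES cells with a neo cassette that was afterwards removed by cre. ΔleftPAL mice (delta2leftPAL in the sample labels) had lost the fragment with the enhancers hs3a and hs1,2 and the IRIS between them. ΔIRIS mice (deltaIRIS) had lost the IRIS only and kept the 4 enhancers, with hs3a inverted. Neither genotype therefore held an intact 3'RR palindrome, and wt libraries were not analysed here. For each genotype there was 1 library of freshly purified, resting cells and 1 library of cells cultured for 2 days with 5 μg per ml LPS, a bacterial cell wall component and B cell mitogen, and then cleared on a density gradient. The mice were males of 8 to 12 weeks according to the description of the RNAseq experiment. Each library was a pool over mice, described in the labels as cells of 4 animals, in the methods as 2 pooled RNAs and elsewhere as 2 experiments with 3 mice of each genotype, so no difference between 2 libraries had a replicate check. Cells cultured without LPS were not analysed here, so LPS, 2 days of culture and the later gradient cannot be told apart.

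A chromosome is copied once per cell cycle. In G1, the origin recognition complex with Cdc6 and Cdt1 loads the MCM helicase onto origins, which is called licensing, and geminin later binds Cdt1 to stop a further round. In S phase, Cdc45 and GINS join MCM into the active helicase, primase and DNA polymerases copy the strands with the help of a sliding clamp and its loader, and flaps of the lagging strand are cut and sealed. Most mature B cells in the spleen are out of cycle, and LPS is a mitogen that brings them into it, with E2F factors as the best known drivers of replication genes in late G1.

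Gene counts summed to 23615496 (resting) and 27777790 (LPS) for ΔleftPAL and to 28707002 (resting) and 29776108 (LPS) for ΔIRIS. Levels are given as CPM (the share of the library's gene counts on the usual CPM scale, corrected by edgeR's TMM factors). The factors lay between 0.970 and 1.03. Ratios are log2 ratios of such levels between 2 libraries, with exact 95% Clopper-Pearson intervals that cover the error of counting alone. These intervals take each count as a separate molecule, so reads copied by PCR would make them too narrow. The ratios compare the libraries and not the conditions, and no p-value is given, as each group is 1 library. A fit that takes the genotypes as replicates of the LPS change, which assumes the same change in both, was not made. A gene was called where 2 libraries were at least 2-fold apart. Of the B cell markers, Cd79b stood at 977 and 618 CPM at rest and 488 and 444 CPM after LPS in ΔleftPAL and ΔIRIS cells, and Cd22 at 637 and 489 CPM at rest and 288 and 318 CPM after LPS, both thus lower in resting ΔIRIS cells. Ms4a1 stood at 946 and 915 CPM at rest and 748 and 916 CPM after LPS, Pax5 at 139.8 and 144 CPM at rest and 99.5 and 95.1 CPM after LPS, and Cd79a at 463 and 477 CPM at rest and 239 and 250.2 CPM after LPS. The 8 erythroid markers, of which haemoglobin genes formed the bulk, summed to 41544 and 29112 CPM in resting ΔleftPAL and ΔIRIS cells and to 58.4 and 124 CPM after LPS. The 5 myeloid markers summed to 305 and 414 CPM at rest and to 8.31 and 17.5 CPM after LPS, although Itgam among them had a log2 ratio of -1.34 in ΔleftPAL and of 0.55 in ΔIRIS cells. The 5 T cell markers summed to 19.3 and 25.2 CPM at rest and to at most 0.111 CPM after LPS, where Cd3e, Cd3d and Cd3g were at 0. The 2 NK cell markers summed to 2.09 and 0.963 CPM at rest and to at most 0.0742 CPM after LPS, and the 4 plasmablast markers to 267 and 244 CPM at rest and to 985 and 600.2 CPM after LPS. Markers of other cells thus moved with the comparison of LPS with resting cells, and their part in those ratios was not tested. Of the germinal centre markers, Mybl1 stood at 13.8 CPM in resting ΔleftPAL and 2.51 CPM in resting ΔIRIS cells and S1pr2 at 7.41 and 1.38 CPM, and their part in the genotype ratios at rest was not tested either.

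The replication genes were a small part of the transcriptome at rest and were higher as a group after LPS, in both genotypes and by nearly the same factor. Together the 45 genes took 0.141% of the counts in resting ΔleftPAL cells and 0.659% after LPS, and 0.142% and 0.702% in ΔIRIS cells. Their median level was 17.7 CPM at rest and 91.5 CPM after LPS in ΔleftPAL, and 16.4 and 94.1 CPM in ΔIRIS. In bulk RNA of this kind, more cells that express a gene and more RNA per cell cannot be told apart. In ΔleftPAL cells, 42 of the 45 genes were at least 2-fold higher after LPS, against 21.3% of all genes with the same minimum of counts. In ΔIRIS cells it was again 42 of 45, against 22.8% of all genes, and they were the same 42 genes. At least 4-fold higher were 33 genes in ΔleftPAL (6.15% of all genes) and 35 in ΔIRIS (6.16%), of which 32 were shared. None of the 45 was at least 2-fold lower, against 16.5% of all genes in ΔleftPAL and 18.2% in ΔIRIS. The median log2 ratio of the 45 genes was 2.49 in ΔleftPAL and 2.50 in ΔIRIS, or 5.61- and 5.65-fold, while the median of all genes was 0.12 and 0.13.

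The 3 genes that were not called in either genotype were Cdt1, the loader of MCM that geminin inhibits, Rfc1, the large subunit of the clamp loader, and Pold1, the catalytic subunit of DNA polymerase δ. Cdt1 was the one member with a lower level after LPS. The order of the genes was alike in the genotypes: Pearson's r of the log2 ratios was 0.967 and Spearman's rho 0.957 across the 45 genes, a description across genes, which are not independent replicates, of comparisons that share no library. Mcm10 had the highest ratio in both, and of the 10 genes with the highest ratio in each genotype 8 were shared, namely Cdc45, Cdc6, Dut, Gins2, Mcm10, Rrm2, Tyms and Uhrf1. These directions depend on the scaling. Gapdh, a glycolytic enzyme that the study used as the reference of its PCR, was itself 2.65 and 2.98 higher on the log2 scale after LPS, and relative to it the median of the 45 genes became -0.16 in ΔleftPAL and -0.48 in ΔIRIS. In kallisto TPM, 41 genes in each genotype stayed at least 2-fold higher, with the call lost for Rfc2 in ΔleftPAL and for Gins4 in ΔIRIS, and 25 in ΔleftPAL and 24 in ΔIRIS at least 4-fold. The 4-fold call was lost there in both genotypes for Pola1, Prim2, Pold2, Rfc4, Rfc5, Rpa2, Tk1 and Chaf1b and in ΔIRIS for Mcm7, Gins3 and Rpa3 as well. The log2 ratios became 1.55 and 1.94 for Rfc4, 1.38 and 1.46 for Prim2, 1.56 and 1.63 for Rfc5 and 1.52 and 1.73 for Rpa2, each over 1.5 times lower as a fold in at least 1 genotype. Relative to the median of all genes, which a scaling factor per library shifts by the same amount, the members stood 2.36 and 2.37 higher on the log2 scale.

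**Figure D1:**
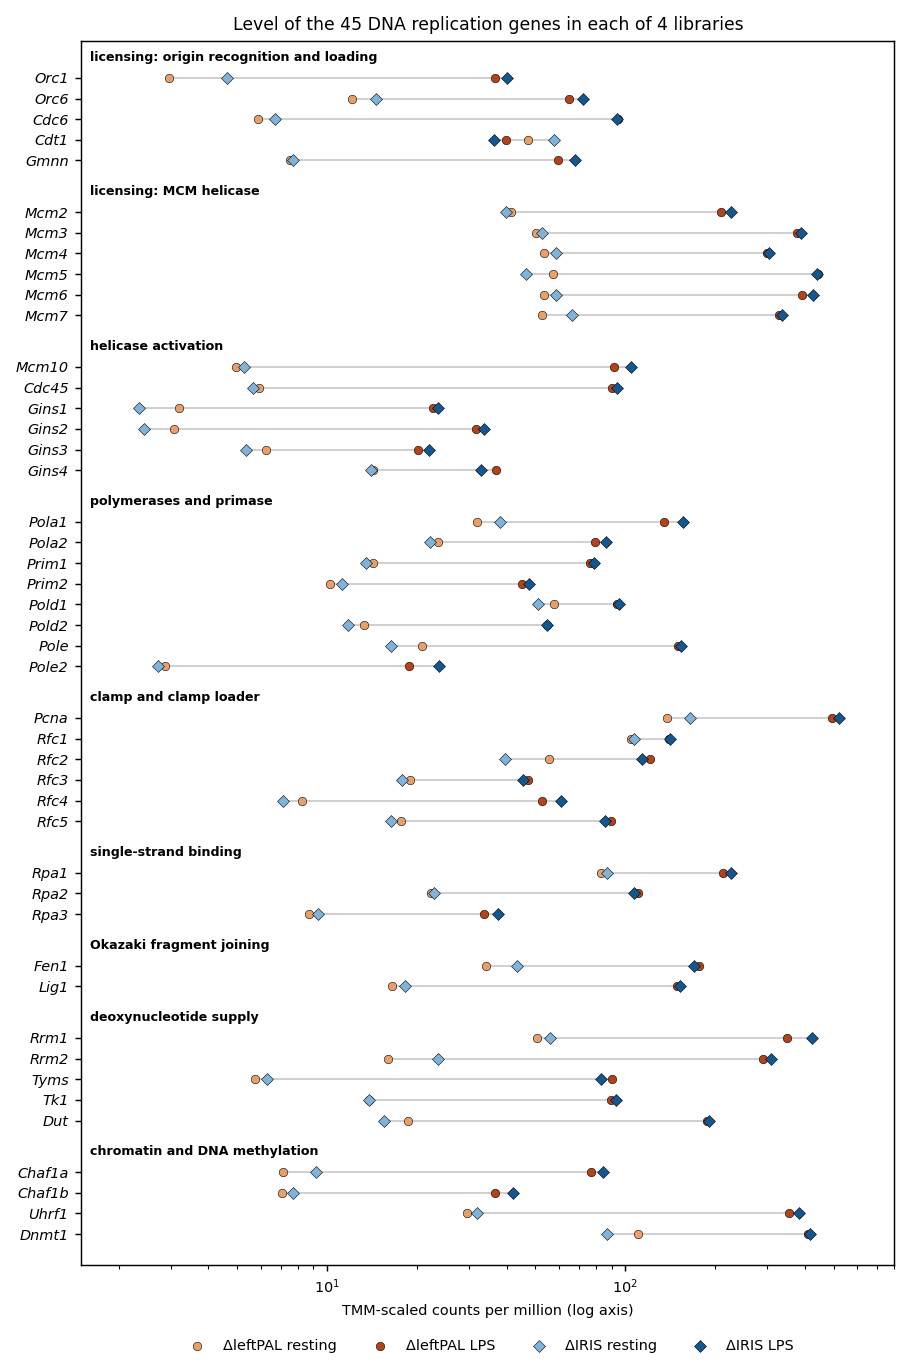
Level of each of the 45 genes in TMM-scaled CPM on a log axis, grouped by role, with 1 point for each of the 4 libraries (circles ΔleftPAL, diamonds ΔIRIS, light resting, dark LPS). Both LPS points lie to the right of both resting points for every gene but Cdt1, with the widest gaps for Mcm10, Rrm2, Cdc6 and Cdc45; scaled by Gapdh, the median of the 45 genes would be lower after LPS in both genotypes.

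Promoter sequences of RefSeq (build GRCm38.p6, from 250 bases before to 50 bases after the start) were found for 37 of the 45 genes. Entries of Gins1, Gins2, Gins4, Gmnn, Mcm4, Pole, Prim2 and Rfc2 were not used here. For the 6 genes with several starts the most upstream one was taken, and the same was done for all 27024 genes with a window. Core letters of E2F sites were searched on both strands with overlapping matches kept, namely the heptamer TTCCCGC and its variants, first TTGGCGC, next TTGCCGC and last TTCGCGC. At least 1 of them lay in the window of 22 of the 37 genes (59.5%), against 9.72% of all windows and 18.2% of the windows of the 7968 genes with the minimum of counts. With a T added before each heptamer the share was 32.4% of the 37 genes and 2.33% of all windows. CCAAT, the letters of NF-Y sites, was held by 24 of the 37 windows (64.9%), 38.0% of all windows and 39.7% of those of genes with the minimum of counts. TTTGAA or TTCGAA, the letters of CHR elements of late cell cycle genes, were held by 7 windows (18.9%). These letters were in 19.5% of all windows and 14.1% of those of genes with the minimum of counts. Of 35 replication genes outside the list that have a window, 16 (45.7%) held an E2F-type match.

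A match is a description of letters and not of binding, and the LPS ratios of genes with and without an E2F-type match overlapped widely. Their median log2 ratio was 2.65 in ΔleftPAL and 2.70 in ΔIRIS for the 22 genes with a match, and 2.37 and 2.39 for the 15 genes without. Mcm10 and Cdc45, with the 2 highest ratios in ΔIRIS, had no E2F-type match in the window, while Cdt1, Rfc1 and Pold1 had one just after the start. The start is that of RefSeq, which for several genes, among them Orc1, Cdc6, Rrm2, Uhrf1 and Mcm7, lies inside the annotated gene coordinates. A match before the start can then lie within the annotated gene. Of the 11 genes whose log2 ratio was at least 3 in both genotypes, stretches of promoter are shown for the 5 with an E2F-type match before the start. Of the others, Cdc45, Dut, Lig1, Mcm10 and Tyms had no E2F-type match in the window, and no window was used for Gins2. Stretches are also shown for Mcm5 and Mcm6, in which matches on opposite strands overlap before the start. They are written 5′ to 3′ on the strand of the gene, with the matches in capitals, from chr4:108579407-108579453 (plus strand) for Orc1, chr11:98907993-98908039 (plus) for Cdc6, chr12:24708004-24708045 (plus) for Rrm2, chr17:56040349-56040395 (plus) for Chaf1a, chr17:56303269-56303315 (plus) for Uhrf1, chr8:75109340-75109386 (plus) for Mcm5 and chr1:128359722-128359768 (minus) for Mcm6.
Orc1: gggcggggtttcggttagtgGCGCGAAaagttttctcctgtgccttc
Cdc6: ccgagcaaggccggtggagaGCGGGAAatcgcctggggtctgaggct
Rrm2: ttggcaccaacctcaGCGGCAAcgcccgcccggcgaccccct
Chaf1a: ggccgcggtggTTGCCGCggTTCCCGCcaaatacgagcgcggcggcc
Uhrf1: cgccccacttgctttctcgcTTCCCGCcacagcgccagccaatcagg
Mcm5: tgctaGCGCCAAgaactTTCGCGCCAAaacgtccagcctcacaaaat
Mcm6: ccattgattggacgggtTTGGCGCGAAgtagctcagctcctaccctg
Of these 7 genes, all but Cdc6 hold CCAAT in the window, inside the stretch shown in the case of Uhrf1 and Mcm6, and the map of motif matches gives their distances.

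**Figure D2:**
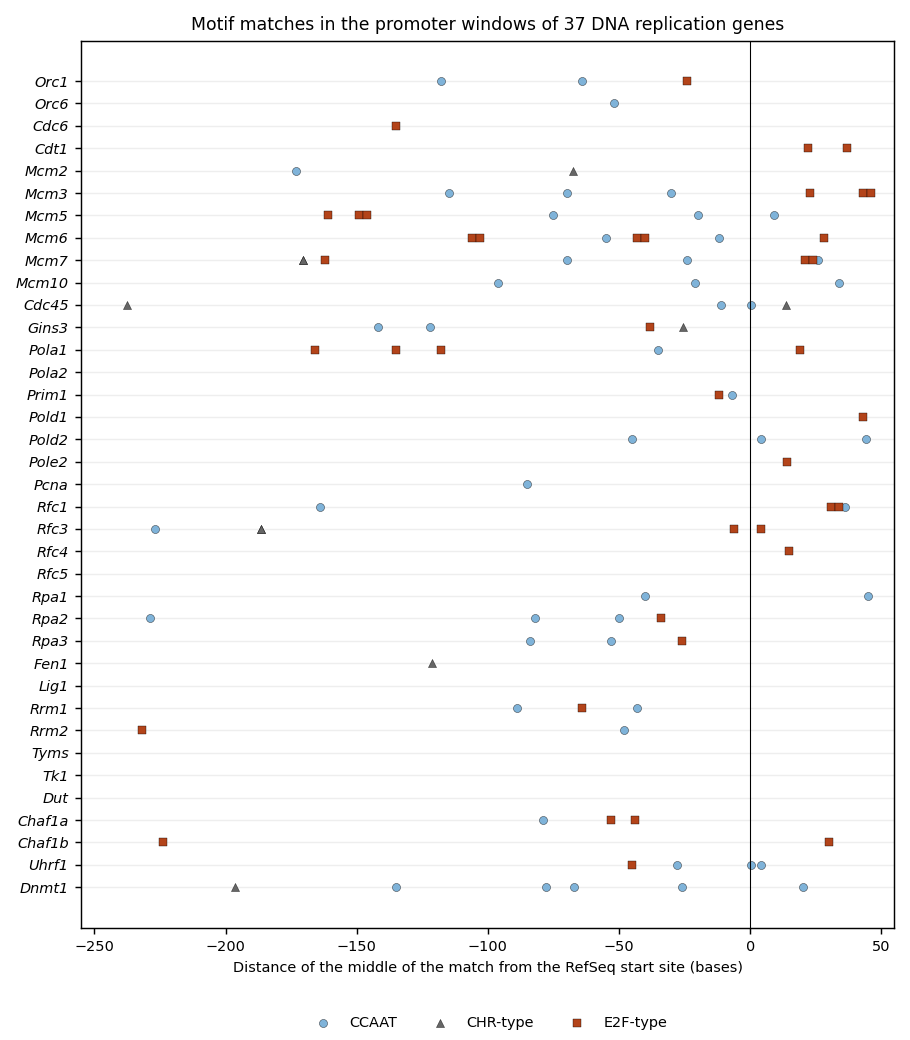
Position of each motif match in the promoter windows of the 37 genes with a RefSeq entry, as the distance in bases of the middle of the match from the start site (vertical line), with squares for E2F-type heptamers, circles for CCAAT and triangles for CHR-type letters. E2F-type matches lie before the start in 16 genes and only after it in 6, and 6 genes hold none of the 3 motifs.

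The factors that load MCM showed the widest spread of any role. Orc1, the ATPase subunit of the origin recognition complex that is renewed in each cycle, went from 2.95 to 36.5 CPM in ΔleftPAL and from 4.61 to 40.2 CPM in ΔIRIS cells (gene at chr4:108579423-108614833, mm10). Its log2 ratio was 3.63 (interval 3.29 to 4.00) and 3.12 (2.86 to 3.39). Cdc6, the loading ATPase, went from 5.85 to 94.4 CPM in ΔleftPAL and from 6.67 to 94.1 CPM in ΔIRIS cells, a log2 ratio of 4.01 and 3.82. From the gene counts both genes had a log2 ratio above 3 in each genotype, and the promoter stretches of both are shown above. In TPM the log2 ratios of Orc1 were 2.55 and 2.47, or 5.87- and 5.56-fold. Orc6, the smallest subunit of the complex, went from 12.1 to 64.9 CPM in ΔleftPAL and from 14.7 to 72.4 CPM in ΔIRIS cells, with log2 ratios of 2.42 and 2.30, and was lower relative to Gapdh. Among the subunits that are no members, Orc2 had log2 ratios of 1.99 and 2.26, but Orc3, Orc4 and Orc5 stayed under 2-fold, at 0.41 and 0.58, 0.25 and 0.31 and 0.24 and 0.30. The subunits of 1 complex therefore differed, with Orc1 at one end and Orc4 and Orc5, whose intervals overlapped, at the other.

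Cdt1 and its inhibitor geminin (Gmnn) moved in opposite directions. Cdt1 (at chr8:122568015-122573128) went from 47.2 to 39.9 CPM in ΔleftPAL and from 57.5 to 36.2 CPM in ΔIRIS cells, and its log2 ratio was -0.24 (interval -0.36 to -0.12) and -0.67 (-0.78 to -0.55). Gmnn (at chr13:24751845-24761923) went from 7.49 to 59.4 CPM in ΔleftPAL and from 7.67 to 67.8 CPM in ΔIRIS cells, and its log2 ratio was 2.99 (interval 2.77 to 3.22) and 3.14 (2.94 to 3.35). Per length of transcript, in TPM from kallisto, Cdt1 stood at 29.9 and 36.2 at rest and at 21.8 and 19.0 after LPS, and Gmnn at 12.5 and 12.2 at rest and at 82.4 and 90.7 after LPS. The ratio of Cdt1 over Gmnn in TPM was thereby 2.39 at rest and 0.265 after LPS in ΔleftPAL, and 2.96 and 0.210 in ΔIRIS. Cdt1 was lower after LPS under all scalings tried, by 0.09 in ΔleftPAL and 0.51 in ΔIRIS on the log2 scale from kallisto estimated counts and by more under Gapdh. No other gene of the table overlaps its exons.

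The 6 subunits of the MCM helicase, a ring with 1 copy of each of Mcm2 to Mcm7, moved in one direction. All 6 were at least 4-fold higher after LPS in both genotypes from the gene counts, although Mcm7 in ΔIRIS was 2.72-fold higher in TPM and relative to Gapdh 3 of them in ΔleftPAL and 5 in ΔIRIS were lower, and their log2 ratios stayed between 2.34 and 2.94 in ΔleftPAL and between 2.34 and 3.24 in ΔIRIS. Together they summed to 309 and 323 CPM at rest and to 2047 and 2121 CPM after LPS. Mcm5 went from 57.4 to 442 CPM in ΔleftPAL and from 46.6 to 439.9 CPM in ΔIRIS cells, with a log2 ratio of 2.94 (interval 2.86 to 3.03) and 3.24 (3.16 to 3.32). Mcm7 went from 52.8 to 327 CPM in ΔleftPAL and from 66.2 to 336 CPM in ΔIRIS cells, with a log2 ratio of 2.63 (interval 2.55 to 2.72) and 2.34 (2.27 to 2.41). Mcm5 and Mcm7 thus marked the ends of the range in ΔIRIS, while the intervals of Mcm3 (2.90 and 2.89) and Mcm6 (2.88 and 2.86) overlapped in each genotype. Mcm3 went from 50.4 to 376 CPM in ΔleftPAL and from 52.5 to 388 CPM in ΔIRIS cells. Mcm6 went from 53.3 to 392 CPM in ΔleftPAL and from 58.6 to 427 CPM in ΔIRIS cells. The groups of resting and LPS libraries were far apart for these genes as well. Mcm2 went from 41.5 to 209.9 CPM in ΔleftPAL and from 40.0 to 226 CPM in ΔIRIS cells, a log2 ratio of 2.34 and 2.50. Mcm4 went from 53.5 to 299.7 CPM in ΔleftPAL and from 58.7 to 304 CPM in ΔIRIS cells, a log2 ratio of 2.49 and 2.37. In TPM, Mcm2 was the lowest and Mcm7 the highest of the 6 in every library, and the highest over the lowest was 2.72 and 4.37 times at rest and 2.62 and 2.51 times after LPS in ΔleftPAL and ΔIRIS. Part of the exons of Mcm7 is shared with the genes of the microRNAs Mir25 and Mir93 on the same strand, both at 0 counts in every library, and part lies opposite to Ap4m1 and Cops6. The counting was strand-specific according to the methods.

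**Figure D3:**
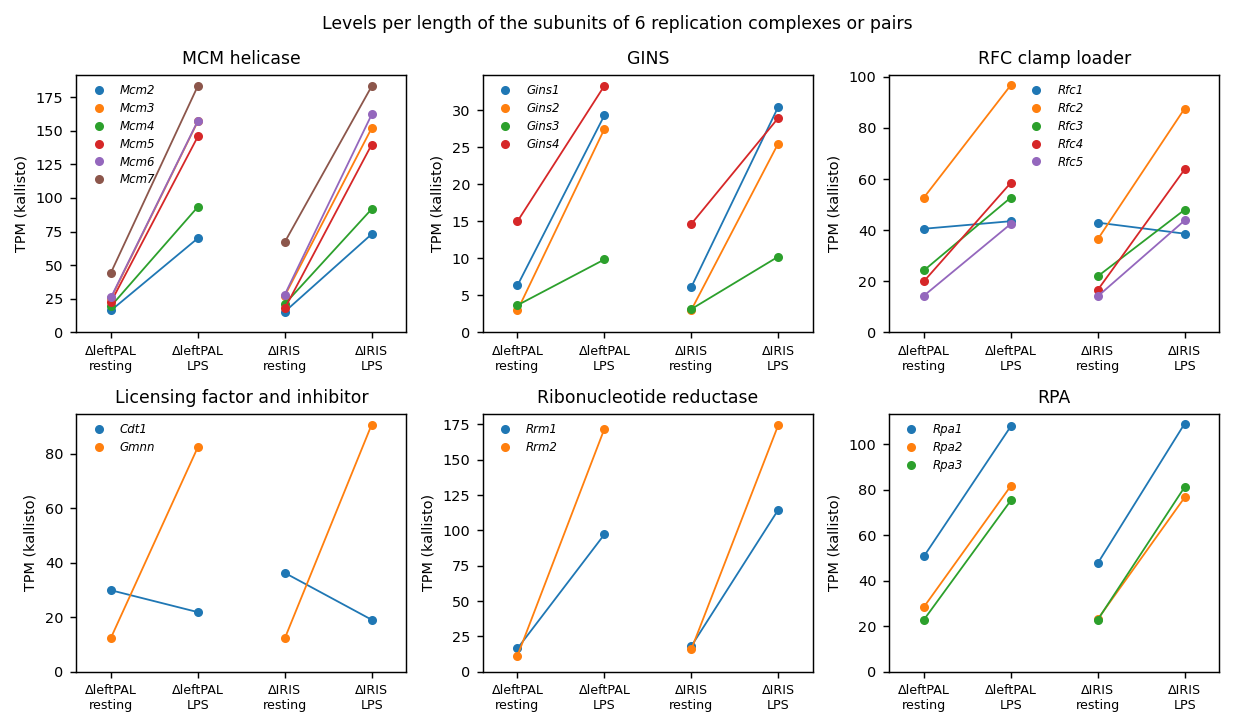
Kallisto TPM, a level per length of transcript, of the subunits of MCM, GINS, RFC and RPA and of the pairs Cdt1 and Gmnn and Rrm1 and Rrm2, with 1 point per library and a line from resting to LPS within a genotype (linear axes from 0). Mcm7 is the highest MCM subunit in all 4 libraries, Cdt1 and Gmnn change places, and so do Rrm1 and Rrm2, on a scale that is not set by Gapdh.

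The factors that turn loaded MCM into the active helicase included the highest ratios of the list, and their median was 3.10 in ΔleftPAL and 3.56 in ΔIRIS. Mcm10, which acts in the firing of the origin, went from 4.95 to 91.5 CPM in ΔleftPAL and from 5.26 to 104 CPM in ΔIRIS cells (at chr2:4989714-5012791), a log2 ratio of 4.21 (interval 3.94 to 4.48) and 4.31 (4.07 to 4.55), or 18.5- and 19.8-fold, and in TPM 17.0- and 13.2-fold. Cdc45, the partner of MCM and GINS, went from 5.94 to 90.6 CPM in ΔleftPAL and from 5.64 to 94.1 CPM in ΔIRIS cells (at chr16:18780447-18811987), a log2 ratio of 3.93 (interval 3.69 to 4.18) and 4.06 (3.83 to 4.30). These were the 2 highest ratios in ΔIRIS. The 4 GINS subunits, which form 1 complex, were unequal. Gins1 went from 3.19 to 22.7 CPM in ΔleftPAL and from 2.34 to 23.6 CPM in ΔIRIS cells, and Gins2 went from 3.07 to 31.6 CPM in ΔleftPAL and from 2.44 to 33.6 CPM in ΔIRIS cells. Their log2 ratios were 2.83 and 3.33 for Gins1 and 3.36 and 3.78 for Gins2, whereas those of Gins3 were 1.69 and 2.04 and those of Gins4 were 1.36 and 1.22. Gins3 went from 153 to 543 counts in ΔleftPAL and from 155 to 644 counts in ΔIRIS cells, and Gins4 went from 14.3 to 36.7 CPM in ΔleftPAL and from 14.0 to 32.8 CPM in ΔIRIS cells. Relative to Gapdh, Gins3 and Gins4 were lower after LPS in both genotypes. In TPM the log2 ratios of Gins1 were 2.21 and 2.32, or 4.63- and 4.99-fold, and Gins4 was 1.98-fold higher in ΔIRIS, under the 2-fold call. In TPM, Gins4 was at 15.0 and 14.7 at rest against 2.98 and 3.02 for Gins2, and after LPS both lay between 25.5 and 33.3. Summed over all transcripts, Gins1, Gins2 and Gins4 therefore came closer together after LPS, while Gins3 was the lowest after LPS at 9.86 and 10.2. Of the Gins2 TPM after LPS, however, 56.3% and 58.2% was of retained-intron type and only 30.7% and 34.3% was coding. For Gins3 and Gins4 all of it was coding, so this order does not carry over to coding transcripts. At rest Gins1 rested on 78 and 68 counts and Gins2 on 75 and 71, against 169 and 137 kallisto estimated counts. From estimated counts the log2 ratios of Gins2 were 2.50 and 3.15, so its place among the highest ratios rests in part on the gene counts. Of the exon bases of Gins2, 67.3% lie opposite to exons of Gse1.

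Polymerase and primase genes were at least 2-fold higher after LPS in both genotypes, Pold1 excepted, but relative to Gapdh all of them except Pole and Pole2 were lower in both. Pole, the catalytic subunit of DNA polymerase ε, went from 20.8 to 150.3 CPM in ΔleftPAL and from 16.4 to 154 CPM in ΔIRIS cells, a log2 ratio of 2.85 (interval 2.72 to 2.99) and 3.23 (3.09 to 3.37), or 2.43 and 2.55 in TPM, and its partner Pole2 went from 2.87 to 18.8 CPM in ΔleftPAL and from 2.72 to 23.7 CPM in ΔIRIS cells, with 2.72 and 3.12. Pole2 was the lowest polymerase gene in TPM in each library, at 2.46 and 2.35 at rest and 13.3 and 16.0 after LPS. Of DNA polymerase α, which starts each strand with primase, Pola1 went from 31.8 to 135 CPM in ΔleftPAL and from 38.0 to 156 CPM in ΔIRIS cells and had log2 ratios of 2.09 and 2.04, and Pola2 went from 23.5 to 79.2 CPM in ΔleftPAL and from 22.1 to 86.2 CPM in ΔIRIS cells, with 1.75 and 1.96. Of the primase subunits, the catalytic Prim1 went from 14.2 to 76.4 CPM in ΔleftPAL and from 13.5 to 78.5 CPM in ΔIRIS cells, a log2 ratio of 2.42 and 2.54. Its partner Prim2 went from 10.2 to 44.9 CPM in ΔleftPAL and from 11.2 to 47.7 CPM in ΔIRIS cells, a log2 ratio of 2.13 and 2.09. The subunits of polymerase α and primase thus lay within 1 unit of log2 of each other in each genotype. Of polymerase δ, Pold1 went from 57.9 to 93.5 CPM in ΔleftPAL and from 51.0 to 95.3 CPM in ΔIRIS cells (at chr7:44532746-44548849), and its log2 ratio of 0.69 (interval 0.60 to 0.79) and 0.90 (0.81 to 0.99) stayed under 2-fold, while its small partner Pold2 went from 13.3 to 54.7 CPM in ΔleftPAL and from 11.8 to 54.7 CPM in ΔIRIS cells, a log2 ratio of 2.04 and 2.22. Pold1 was the highest polymerase gene at rest in TPM, at 52.0 and 41.9, and was at 51.6 and 50.9 after LPS. Of the δ subunits that are no members, Pold3 had log2 ratios of 0.85 and 1.01 and Pold4 of -0.69 and -0.41, so that Pold2 alone of the 4 exceeded 4-fold in both genotypes, a call that did not hold in TPM. Relative to Gapdh, Pold1 turned to -1.95 and -2.08.

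Pcna, the sliding clamp, had the highest level per length of the list in all libraries, at 165 and 185 TPM at rest and 403 and 432 TPM after LPS. It went from 139 to 492 CPM in ΔleftPAL and from 164 to 519.9 CPM in ΔIRIS cells (at chr2:132249162-132253314), with a log2 ratio of 1.83 (interval 1.77 to 1.88) and 1.66 (1.61 to 1.71), lower than the median of the list in both genotypes. Reads can be split with its processed copy Pcna-ps2, which had 76 and 1013 counts before and after LPS in ΔleftPAL and 148 and 441 in ΔIRIS. Adding them gave log2 ratios of 1.90 and 1.66, so the copy raised the value in ΔleftPAL only. Of the clamp loader, Rfc1 went from 105 to 139.9 CPM in ΔleftPAL and from 107 to 141 CPM in ΔIRIS cells and stayed under 2-fold at 0.42 (interval 0.34 to 0.49) and 0.40 (0.33 to 0.47). The small subunits Rfc2, Rfc3, Rfc4 and Rfc5 were at least 2-fold higher in both genotypes, but not equally, and relative to Gapdh Rfc2, Rfc3 and Rfc5 were lower, as was Pcna. Relative to Gapdh, Rfc1 turned to -2.23 and -2.58, and in TPM Rfc2 was under 2-fold in ΔleftPAL, at 1.83-fold. Rfc4 went from 8.27 to 52.4 CPM in ΔleftPAL and from 7.12 to 60.8 CPM in ΔIRIS cells, a log2 ratio of 2.66 and 3.09, and Rfc5 went from 17.7 to 89.5 CPM in ΔleftPAL and from 16.4 to 85.9 CPM in ΔIRIS cells, with 2.34 and 2.39. Rfc2 went from 55.6 to 121 CPM in ΔleftPAL and from 39.6 to 114 CPM in ΔIRIS cells, a log2 ratio of 1.12 and 1.52, and Rfc3 went from 19.0 to 47.3 CPM in ΔleftPAL and from 17.9 to 45.5 CPM in ΔIRIS cells, with 1.32 and 1.35. In TPM the highest of the 5 subunits was 3.67 and 3.04 times the lowest at rest and 2.28 and 2.27 times after LPS, in ΔleftPAL and ΔIRIS. Rfc1 stood at 40.6 and 42.9 TPM at rest and 43.5 and 38.6 TPM after LPS, so that its direction differed between the genotypes on that scale. Rfc4 lies partly opposite to Eif4a2, an abundant translation factor, and Rfc5 partly opposite to Wsb2.

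The 3 subunits of RPA, which coats single-stranded DNA, were at least 2-fold higher in both genotypes, a direction that turned for all 3 relative to Gapdh. Rpa1, the large subunit, went from 82.8 to 213 CPM in ΔleftPAL and from 87.2 to 227 CPM in ΔIRIS cells, a log2 ratio of 1.37 and 1.38. Rpa2, the middle subunit, went from 22.4 to 110.3 CPM in ΔleftPAL and from 22.9 to 107 CPM in ΔIRIS cells, and Rpa3, the small one, went from 8.72 to 33.7 CPM in ΔleftPAL and from 9.32 to 37.4 CPM in ΔIRIS cells. Their log2 ratios were 2.30 and 2.23 for Rpa2 and 1.95 and 2.01 for Rpa3, both above the intervals of Rpa1, which were 1.29 to 1.44 and 1.31 to 1.45. Of the genes that finish the lagging strand, the ligase Lig1 went from 16.5 to 149 CPM in ΔleftPAL and from 18.2 to 152 CPM in ΔIRIS cells, a log2 ratio of 3.18 (interval 3.03 to 3.33) and 3.06 (2.93 to 3.20). Fen1, the flap nuclease, went from 34.2 to 177 CPM in ΔleftPAL and from 43.3 to 171 CPM in ΔIRIS cells, with 2.37 (interval 2.27 to 2.48) and 1.98 (1.89 to 2.07). Lig1 had the higher ratio of the pair in each genotype, with intervals apart, and Fen1 but not Lig1 was lower after LPS relative to Gapdh.

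Genes of deoxynucleotide supply were at least 4-fold higher in both genotypes from the gene counts, although Rrm1 and Tk1 were lower relative to Gapdh in ΔIRIS and the call of Tk1 did not hold in TPM. Rrm2, the small subunit of ribonucleotide reductase that is limited to cycling cells, went from 16.0 to 290.2 CPM in ΔleftPAL and from 23.6 to 309 CPM in ΔIRIS cells (at chr12:24708241-24714146), a log2 ratio of 4.18 (interval 4.03 to 4.33) and 3.71 (3.60 to 3.83). Rrm1, the large subunit, went from 50.7 to 348 CPM in ΔleftPAL and from 56.1 to 423 CPM in ΔIRIS cells, a log2 ratio of 2.78 (interval 2.69 to 2.86) and 2.92 (2.84 to 2.99). In TPM, Rrm2 was 0.686 and 0.873 times Rrm1 at rest and 1.77 and 1.52 times after LPS, so the order of the subunits turned. Rrm2b, a form of the small subunit that is used outside S phase and is no member, went from 34.3 to 14.6 CPM in ΔleftPAL and from 28.6 to 17.8 CPM in ΔIRIS cells, a log2 ratio of -1.24 and -0.68. Dut, which removes dUTP, went from 18.8 to 188 CPM in ΔleftPAL and from 15.5 to 192 CPM in ΔIRIS cells, a log2 ratio of 3.33 (interval 3.19 to 3.47) and 3.63 (3.49 to 3.77), and Tk1, the thymidine kinase of cycling cells, went from 13.9 to 89.6 CPM in ΔleftPAL and from 13.8 to 93.4 CPM in ΔIRIS cells, with 2.69 and 2.76. From kallisto estimated counts the log2 ratios of Tk1 were 1.98 and 2.03, and from TPM 1.44 and 1.41, or 2.71- and 2.66-fold.

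Tyms, thymidylate synthase, went from 5.73 to 90.6 CPM in ΔleftPAL and from 6.29 to 82.9 CPM in ΔIRIS cells (at chr5:30058202-30073617), a log2 ratio of 3.98 (interval 3.74 to 4.24) and 3.72 (3.50 to 3.94), but its resting level was uncertain. At rest the gene counts of Tyms were only 0.203 and 0.257 times the kallisto estimated counts, and 0.863 and 0.868 times after LPS, whereas the median over the 45 genes lay between 0.989 and 0.995. From kallisto estimated counts the log2 ratios were 2.02 and 2.12, and from TPM 2.89 and 2.91. Over all its transcripts Tyms was thus at least 4-fold higher after LPS in either table, but the size of its ratio depends on the table. Its coding transcript took 68.4% and 78.9% of its TPM at rest and 21.3% and 22.1% after LPS. The ratio of the coding transcript alone was therefore smaller than that of the gene in TPM. No other gene of the table overlaps its exons.

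Of the genes that copy chromatin and its DNA methylation, Uhrf1, which reads hemimethylated DNA and recruits Dnmt1, went from 29.5 to 355 CPM in ΔleftPAL and from 31.9 to 382 CPM in ΔIRIS cells (at chr17:56303321-56323486), a log2 ratio of 3.59 (interval 3.48 to 3.70) and 3.58 (3.49 to 3.68). Dnmt1, the maintenance methyltransferase, went from 110.4 to 409 CPM in ΔleftPAL and from 86.8 to 418 CPM in ΔIRIS cells, a log2 ratio of 1.89 (interval 1.83 to 1.95) and 2.27 (2.21 to 2.33). Uhrf1 had the higher ratio of the pair in each genotype, with intervals apart, and Dnmt1 but not Uhrf1 was lower after LPS relative to Gapdh. The large subunit of the chromatin assembly factor, Chaf1a, went from 174 to 2074 counts in ΔleftPAL and from 268 to 2469 counts in ΔIRIS cells, a log2 ratio of 3.43 and 3.19, and Chaf1b went from 7.04 to 36.6 CPM in ΔleftPAL and from 7.67 to 42.1 CPM in ΔIRIS cells, with 2.38 and 2.46. Chaf1a had the higher ratio in each genotype, and Chaf1b but not Chaf1a was lower after LPS relative to Gapdh.

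**Figure D4:**
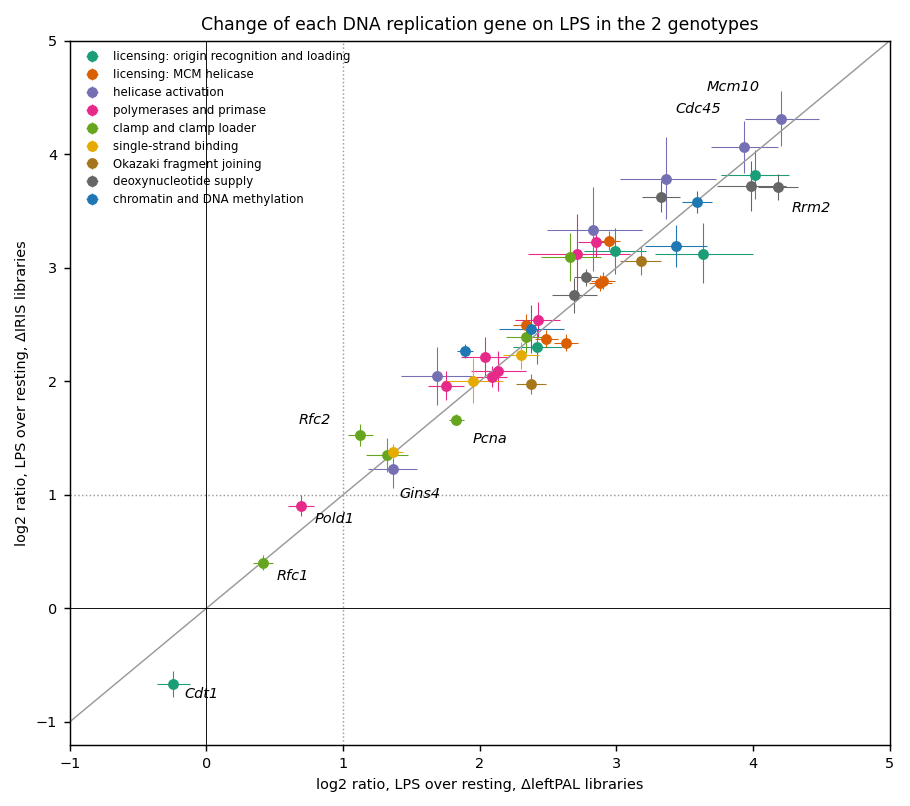
The log2 ratio of LPS over resting of each gene in ΔleftPAL (x) against ΔIRIS (y) cells, coloured by role, with 95% counting intervals as bars, the line of equal values and dotted lines at 2-fold. The genes lie along the line from Cdt1, below 0, through Rfc1 and Pold1, under 2-fold, to Mcm10; under Gapdh scaling all points would shift by -2.65 (x) and -2.98 (y).

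Between the genotypes, replication genes differed by less than 2-fold in either state. At rest none of the 45 was at least 2-fold higher in ΔIRIS than in ΔleftPAL cells (2.43% of all genes) and none at least 2-fold lower (1.37%). After LPS again none was at least 2-fold higher (1.09% of all genes) and none lower (2.51%). The members' median for ΔIRIS over ΔleftPAL, on the log2 scale, was 0.034 at rest and 0.054 after LPS, against 0.00028 and 0.028 for all genes. Relative to Gapdh the median after LPS became -0.11, and in kallisto TPM both medians were below 0, at -0.028 and -0.0033, so that their direction depends on the scaling. At these depths small ratios can be seen, and the counting interval lay above equal levels for 12 genes at rest (30.3% of all genes) and below for 6 (27.0%), or for 21 and 3 relative to Gapdh (48.3% and 12.5% of all genes). After LPS it lay above for 19 genes (27.6% of all genes) and below for 4 (19.4%), but for 33 and 0 genes from kallisto estimated counts (38.0% and 14.0% of all genes) and for 1 and 29 genes relative to Gapdh (8.38% and 44.7% of all genes). Such intervals leave out the spread between pools of mice, which 1 library per group cannot show.

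From the gene counts the ratio at rest ran from -0.49 for Rfc2 to 0.64 for Orc1. Orc1 was at 2.95 CPM in ΔleftPAL and 4.61 CPM in ΔIRIS cells, from 72 and 134 counts, with an interval of 0.22 to 1.08. Its ratio was 0.41 (0.02 to 0.81) from kallisto estimated counts and turned to -0.05 in TPM, where it stood at 3.32 and 3.21, so the direction of Orc1 at rest depends on the table. Rrm2 followed with 0.56 (0.38 to 0.74), then Chaf1a with 0.37 (0.091 to 0.66), Fen1 with 0.34 (0.21 to 0.47) and Mcm7 with 0.33 (0.23 to 0.43). On the other side, among genes whose interval excluded 0, stood Rfc2 (-0.61 to -0.38), then Dnmt1 with -0.35 (-0.43 to -0.27) and Pole with -0.34 (-0.53 to -0.16). Mcm5 with -0.30 (-0.41 to -0.19), Dut with -0.27 (-0.46 to -0.083) and Pold1 with -0.18 (-0.29 to -0.078) came next. Gins1 had a ratio of -0.45, but its interval of -0.94 to 0.039 held 0. Subunits of 1 complex thus lay on both sides of equal levels at rest, as Mcm5 and Mcm7 did.

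After LPS the ratios were closer to 0. They ran from -0.16 (-0.29 to -0.035) for Gins4 to 0.33 (0.16 to 0.50) for Pole2, and Rrm1 followed with 0.28 (0.24 to 0.32). Of the 12 genes above equal at rest, 8 (66.7%) were also above after LPS, namely Chaf1a, Mcm6, Orc1, Orc6, Pcna, Pola1, Rrm1 and Rrm2, which are 42.1% of the 19. These 8 of 45 stand beside 11.6% of all genes that were above in both states. Rfc2 was below in both, as were 7.35% of all genes, at 55.6 and 39.6 CPM at rest and 121 and 114 CPM after LPS. From kallisto estimated counts the interval after LPS held 0 for Rfc2, at -0.03, and for Gins4, at -0.09, that of Orc1 held 0 with TMM factors computed without immunoglobulin genes, and relative to Gapdh Rrm1 alone of the 8 stayed above. On the TMM scale Cdt1 alone turned, from 0.28 (0.18 to 0.39) at rest to -0.14 (-0.26 to -0.017) after LPS. Its interval after LPS held 0, however, under total counts (to 0.0045), DESeq2 size factors (to 0.0026) and kallisto estimated counts (-0.20 to 0.041). With the counts of its copy added, the interval of Pcna after LPS held 0, from -0.019 to 0.046. The comparisons at rest and after LPS share no library.

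**Figure D5:**
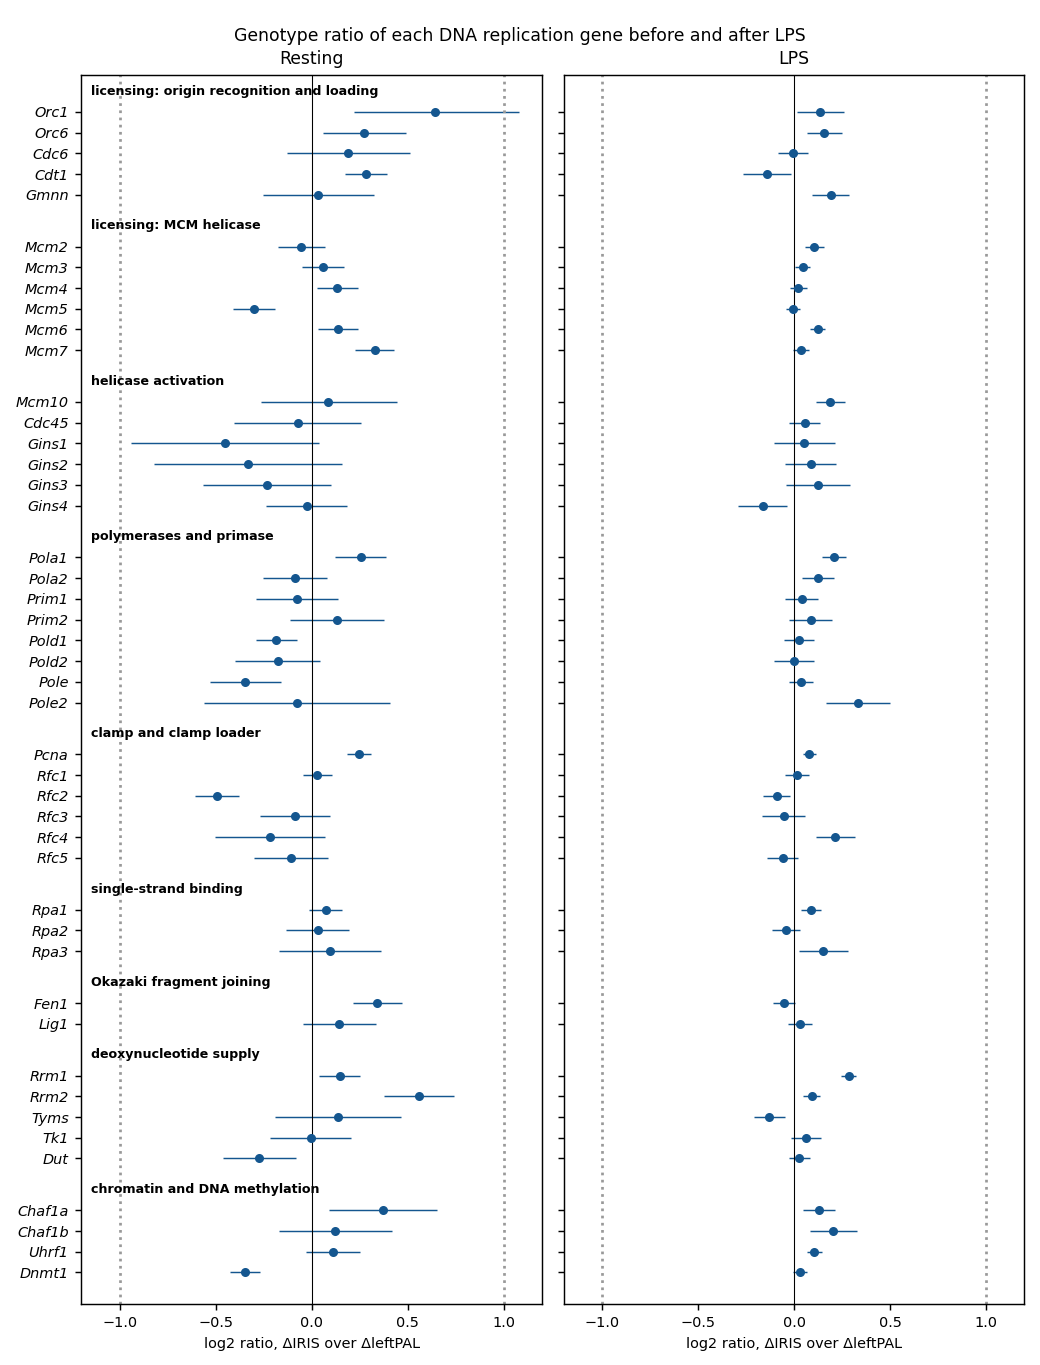
The log2 ratio of ΔIRIS over ΔleftPAL cells of each gene, at rest (left) and after LPS (right), by role, with 95% counting intervals as bars and dotted lines at 2-fold. All 45 points lie inside the 2-fold lines in both panels and run from -0.16 to 0.33 after LPS; Gapdh scaling would shift them by 0.17 at rest and by -0.17 after LPS.

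The change on LPS itself was compared between the genotypes as the difference of the log2 ratios, ΔIRIS minus ΔleftPAL, with an interval from the counts of all 4 libraries. It lay above 0 for 11 genes, against 24.7% of all genes, and below 0 for 7, against 24.4%, while it held 0 for 27. Among genes whose interval excluded 0, the largest differences below it were those of Orc1 at -0.51 (-0.94 to -0.077), Rrm2 at -0.47 (-0.65 to -0.28), Cdt1 at -0.43 (-0.59 to -0.26) and Fen1 at -0.40 (-0.53 to -0.26). Above 0, again among such genes, they were those of Gins1 at 0.50 (0.0080 to 1.00), Rfc4 at 0.43 (0.13 to 0.73), Rfc2 at 0.40 (0.27 to 0.53), Pole at 0.38 (0.19 to 0.57) and Dnmt1 at 0.38 (0.29 to 0.46). From kallisto estimated counts the interval held 0 for Orc1, at -0.22, and for Gins1, at 0.34, and that of Gins1 also held 0 with TMM factors computed without immunoglobulin genes. In TPM the difference was -0.08 for Orc1, 0.11 for Gins1 and 0.11 for Pole, but that of Mcm7 grew from -0.29 to -0.60. The counts depend on the scaling as well. With TMM factors computed without immunoglobulin genes 7 genes lay above 0 and 7 below, against 21.8% and 27.0% of all genes. Relative to Gapdh 0 lay above and 26 below, against 5.49% and 57.2% of all genes. On the TMM scale no member had opposite signs of its LPS ratio in the genotypes, but in TPM Rfc1 and Pold1 had, and relative to Gapdh Mcm3, Mcm6, Rrm1 and Tk1 had.

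Most replication genes outside the list had a higher level after LPS on the TMM scale, though by less than Gapdh at the median. They numbered 36 of 40 in ΔleftPAL and 35 in ΔIRIS, and Mcm9, Pold4, Rrm2b and Top2b were lower in both genotypes. Of 40 other genes of replication, 28 were at least 2-fold higher after LPS in ΔleftPAL (21.3% of all genes) and 27 in ΔIRIS (22.8% of all genes), and their median log2 ratios were 1.59 and 1.54. Top2a, the topoisomerase of dividing cells, went from 91.4 to 1037 CPM in ΔleftPAL and from 108 to 1298 CPM in ΔIRIS cells, a log2 ratio of 3.50 and 3.59. Hells, a chromatin remodeller needed for DNA methylation, had 3.61 and 3.86, Clspn, an adaptor of the replication checkpoint, 3.43 and 3.61, and Ticrr, which with Topbp1 recruits Cdc45, 3.26 and 3.12. Cdc7 and Dbf4, the kinase and its activator that fire licensed origins, had lower ratios of 1.11 and 0.72 and 1.93 and 1.47. Rrm2b was the one gene of the 40 at least 2-fold lower in either genotype. Of 13 genes of the E2F family, its partners and the pocket proteins, 7 were at least 2-fold higher in ΔleftPAL and 8 in ΔIRIS, beside the same 21.3% and 22.8% of all genes. The activator E2f1 went from 3.07 to 12.4 CPM in ΔleftPAL and from 3.82 to 12.8 CPM in ΔIRIS cells, a log2 ratio of 2.01 and 1.74. E2f2, at 72.9 and 89.9 CPM at rest in ΔleftPAL and ΔIRIS, stayed under 2-fold at 0.15 and 0.26. The repressors E2f7 and E2f8 had 2.81 and 2.71 and 2.80 and 2.47, and the partner Tfdp1 had 3.19 and 3.63. Tfdp2, the other partner, went from 91.5 to 19.2 CPM in ΔleftPAL and from 121 to 19.3 CPM in ΔIRIS cells, a log2 ratio of -2.25 and -2.65, the one gene of the 13 at least 2-fold lower. The pocket proteins Rb1 and Rbl2, which hold E2F in check in resting cells, had 0.070 and -0.37 and -0.32 and -0.57. Activating and repressing members of the family were thus both among the genes higher after LPS.

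Total RNA libraries also hold unspliced RNA, and the transcripts that kallisto assigned to the replication genes differed between resting and LPS-activated cells. Of 201 transcripts of the 45 genes, 14 from 10 genes moved by at least 20 percentage points of their gene's TPM in the same direction in both genotypes. These are 6.97% of the transcripts and 22.2% of the genes, against 1.98% of the 48377 transcripts and 7.80% of the 10055 genes with at least 50 estimated counts in every library. The full-length coding transcript of Tk1 (ENSMUST00000026661) took 35.3% and 36.4% at rest and 80.8% and 82.5% after LPS. That of Rfc4 (ENSMUST00000023598) took 35.9% and 29.5% at rest and 83.9% and 87.9% after LPS, while a retained-intron transcript of it (ENSMUST00000147321) took 37.4% and 42.7% and then 3.70% and 3.12%. The coding transcript of Pcna (ENSMUST00000028817) took 58.8% and 65.8% and then 86.7% and 87.9%. Tyms went the other way, its coding transcript (ENSMUST00000026846) taking 68.4% and 78.9% at rest and 21.3% and 22.1% after LPS. By the transcript types of GENCODE M21, a comparison chosen after the values were seen, coding transcripts took 72.1% and 73.1% of the summed TPM of the 45 genes at rest and 87.0% and 88.1% after LPS. For 9432 protein-coding genes with at least 50 estimated counts in every library these shares were 81.7% and 81.8% at rest and 87.3% and 88.0% after LPS. Averaged over genes without weighting by level, the shares were 79.6% and 78.5% at rest and 85.6% and 86.3% after LPS for the 45 genes, against 78.2% and 78.9% at rest and 83.1% and 84.2% after LPS. The share was at least 10 points higher after LPS for 14 and 15 of the 45 genes (31.1% and 33.3%) and for 24.3% and 25.1% of the 9432. It was at least 10 points lower for 3 and 1 of the 45 (6.67% and 2.22%) and for 3.07% and 3.03% of the 9432.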

How the data were processed

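Total RNA of the 4 pools was sequenced as paired reads of 150 nt after depletion of ribosomal RNA (stranded libraries). According to the methods and the submitters' processing notes, the authors aligned reads to mm10 with STAR 2.4.0a and deposited raw counts per gene from featureCounts (Subread 1.4.6-p1, Ensembl release 77, strand-specific, primary alignments, multi-mapping reads included). The authors also deposited estimated counts and TPM per transcript from kallisto 0.42.3. Both were used as deposited, summed per gene for kallisto. The row without a gene name held between 0.00876% and 0.0264% of the counts and was left out, and no sample column was left unused.

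Counts were scaled with TMM factors (edgeR 4.0.16, R 4.3.3) over all 41342 named genes, and ratios, exact intervals and shares were computed in Python 3.11.15 (numpy 2.4.6, pandas 2.3.3, scipy 1.17.1, matplotlib 3.10.9). The interval of a difference between ratios used a normal approximation of the counting error. The steps were tested on simulated data. Genes that averaged 50 or more counts per library were compared, in 4 comparisons. A gene without counts in a library was set to the floor of 3 counts, between 0.102 and 0.123 CPM, which no member needed. Transcripts were compared in genes with at least 50 estimated counts in every library. All 45 members are named by rule, with the other genes taken from fixed lists, and the members and lists were chosen with earlier results of these data known. As alternatives, libraries were scaled by total counts, by size factors of DESeq2 1.42.0, by TMM without immunoglobulin genes and by Gapdh, the kallisto estimated counts and TPM were used, a prior of 0.5 or 5 CPM was added, and the minimum was set to 10 or 200 counts or left out. Adding the copy of Pcna to Pcna, and the comparison of transcript types, were chosen after the data were seen. Promoter sequences, matched by symbol, and exon overlaps came from annotation of GRCm38. Some genes of the B cell and germinal centre marker lists are not reported here.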

Additional observations from a re-analysis of the deposited data

How the results depend on the processing

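Scaling by Gapdh changed many directions. It shifted the median of all genes by -2.65 in ΔleftPAL and -2.98 in ΔIRIS for LPS over resting and by 0.17 at rest and -0.17 after LPS for the genotypes. Under it the median log2 ratio of the members was -0.159 and -0.485 for LPS over resting and -0.113 for the genotypes after LPS. Members at least 2-fold higher after LPS numbered 5 and 2, at least 2-fold lower 7 and 10, and at least 4-fold higher 0 and 0. The shares of all genes called under this scaling are not given here. Relative to the median of all genes the members stood 2.36 and 2.37 higher on the log2 scale, a difference that a scaling factor per library cannot change. The counting interval of ΔIRIS over ΔleftPAL then lay above equal for 21 and below for 3 members at rest (48.3% and 12.5% of all genes). After LPS it lay above for 1 and below for 29 (8.38% and 44.7% of all genes). The log2 ratio of LPS over resting turned negative in ΔleftPAL for Orc6 -0.22, Mcm2 -0.31, Mcm4 -0.16, Mcm7 -0.015, Gins3 -0.96, Gins4 -1.28, Pola1 -0.56, Pola2 -0.89, Prim1 -0.22, Prim2 -0.51, Pold2 -0.61, Pcna -0.82, Rfc2 -1.52, Rfc3 -1.33, Rfc5 -0.31, Rpa1 -1.28, Rpa2 -0.35, Rpa3 -0.70, Fen1 -0.27, Chaf1b -0.27, Dnmt1 -0.76, Pold1 -1.95 and Rfc1 -2.23, and in ΔIRIS for Orc6 -0.68, Mcm2 -0.48, Mcm3 -0.097, Mcm4 -0.61, Mcm6 -0.12, Mcm7 -0.64, Gins3 -0.94, Gins4 -1.76, Pola1 -0.94, Pola2 -1.02, Prim1 -0.45, Prim2 -0.90, Pold2 -0.77, Pcna -1.32, Rfc2 -1.46, Rfc3 -1.63, Rfc5 -0.60, Rpa1 -1.60, Rpa2 -0.76, Rpa3 -0.98, Fen1 -1.01, Rrm1 -0.067, Tk1 -0.23, Chaf1b -0.53, Dnmt1 -0.71, Pold1 -2.08 and Rfc1 -2.58. Kallisto TPM gave medians of 2.13 and 2.05 for LPS over resting, turned the genotype medians to -0.028 at rest and -0.0033 after LPS, and gave LPS ratios of -0.011 for Pold1 in ΔleftPAL and -0.15 for Rfc1 in ΔIRIS, and a prior of 5 CPM gave 2.11 and 2.20, which by its construction draws low genes towards equal levels. Kallisto estimated counts gave 33 members above and 0 below equal for the genotypes after LPS (38.0% and 14.0% of all genes), and the cause was not tested. The difference of the LPS change lay above 0 for 0 and below 0 for 26 members under Gapdh (5.49% and 57.2% of all genes). Under TMM without immunoglobulin genes it lay above 0 for 7 and below 0 for 7 (21.8% and 27.0% of all genes). These alternatives for the difference were chosen after seeing the data. Under total counts and DESeq2 size factors, the medians kept their direction and the counts stayed within 1.5 times their value. The members less the median of all genes stayed between 2.03 and 2.37 on the log2 scale for LPS over resting in both genotypes. With a minimum of 10 or of 200 counts in place of 50, 4.26% or 1.57% of all genes were at least 2-fold higher in ΔIRIS at rest (9.49% with no minimum) and 2.99% or 0.726% lower (12.03%), and after LPS 2.34% or 0.592% higher (9.13%) and 4.82% or 1.28% lower (10.3%). No paired analysis was made. The labels give the groups no replicate numbers, and pairing by genotype would take the genotypes as replicates of the LPS change. With 1 library per group no replicate could be left out. Genes with few counts at rest, such as Pole2, Orc1, Gins1 and Gins2, had the widest intervals.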
